A study of Rattus norvegicus with 8 samples.

Results

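The neuromuscular junction genes described here are 10 genes of the synapse between motor nerve and muscle fiber, namely the muscle acetylcholine receptor subunits Chrna1, Chrnb1, Chrnd, Chrne and Chrng, the receptor-clustering genes Lrp4, Musk, Dok7 and Rapsn, and Ache, the acetylcholinesterase. They were taken by symbol from the authors' table of 14016 entries, and 9 of the 10 had an entry. The samples were thyroarytenoid (TA) muscle, the muscle of the vocal fold, from male Long Evans rats at 8 months of age, 4 Pink1-/- and 4 wildtype (WT). The rats of the first genotype lack Pink1, a mitochondrial kinase whose loss causes an inherited form of Parkinson's disease, and the deletion is carried in every tissue rather than in muscle alone. RNA was sequenced from each muscle, but the value used here is 1 average level per gene over all 8 rats, so the levels hold both genotypes together. The table also carries the authors' own comparison of Pink1-/- with WT, which was not used, and no difference between the genotypes is given. Neither a spread between rats nor the depth of a library is known for any value below.

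At the neuromuscular junction, acetylcholine released by the nerve opens receptors packed in the membrane of the fiber beneath it. The receptor holds a pair of alpha subunits with a beta, a delta and either a gamma or an epsilon subunit. In mammals the gamma subunit is the fetal form, the epsilon subunit replaces it after birth, and the gamma gene is switched on again along the fiber when a muscle loses its nerve. Agrin from the nerve binds Lrp4, which activates the kinase Musk, and Dok7 and Rapsn then gather the receptors under the terminal. Acetylcholinesterase ends the signal by cleaving the transmitter.

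The gene of the adult subunit, Chrne, was read in these muscles, while Chrng, the gene of the fetal subunit, had no entry. Chrne (ENSRNOG00000003777) had an average level of 4.39 log2 CPM, which is 21.0 CPM on the linear scale, where CPM is the read count of a gene scaled to a common library total. Chrng was looked for under its older symbol ACHRG as well and is not analysed here. The lowest level of any entry in the table was -1.34 log2 CPM, but the filter behind the table is not given in the sources used here. No upper limit can therefore be set on Chrng, and the missing entry was read neither as absence of the fetal subunit nor as a state of innervation.

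The upstream sequences of the adult, fetal, delta and alpha subunit genes are printed to show where they match motifs studied in work on rodent muscle. That work concerns synaptic and activity-controlled transcription, neither of which was measured here. The N-box, which GABP binds in synaptic nuclei, was searched as CCGGAA, and the E-box, which myogenic factors such as myogenin and MyoD bind, was searched as CANNTG, both on either strand. Capitals mark every E-box or N-box that lies whole within the 250 bases before the annotated start. Of the printed genes, Chrne and Chrnd held an N-box match, while Chrng and Chrna1 held E-box matches only. The sequences are those of RefSeq on the GRCr8 assembly, read 5' to 3' on the strand of the gene.
Chrne (chr10:55834155-55834404, minus strand): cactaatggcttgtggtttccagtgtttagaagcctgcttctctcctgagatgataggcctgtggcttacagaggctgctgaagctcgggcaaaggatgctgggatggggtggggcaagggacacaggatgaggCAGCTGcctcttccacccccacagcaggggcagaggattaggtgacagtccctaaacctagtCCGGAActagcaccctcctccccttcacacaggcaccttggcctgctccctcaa
Chrng (chr9:95325734-95325983, plus strand): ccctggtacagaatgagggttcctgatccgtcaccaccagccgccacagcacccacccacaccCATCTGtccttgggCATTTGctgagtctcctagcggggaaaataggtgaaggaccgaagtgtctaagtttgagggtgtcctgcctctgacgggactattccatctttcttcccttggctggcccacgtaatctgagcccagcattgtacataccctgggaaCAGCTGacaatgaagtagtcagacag
Chrnd (chr9:95310066-95310315, plus strand): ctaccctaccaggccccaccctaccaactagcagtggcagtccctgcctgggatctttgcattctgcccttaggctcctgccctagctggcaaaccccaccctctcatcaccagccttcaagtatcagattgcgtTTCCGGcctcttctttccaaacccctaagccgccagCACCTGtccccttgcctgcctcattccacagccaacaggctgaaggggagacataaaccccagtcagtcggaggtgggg
Chrna1 (chr3:78877354-78877603, minus strand): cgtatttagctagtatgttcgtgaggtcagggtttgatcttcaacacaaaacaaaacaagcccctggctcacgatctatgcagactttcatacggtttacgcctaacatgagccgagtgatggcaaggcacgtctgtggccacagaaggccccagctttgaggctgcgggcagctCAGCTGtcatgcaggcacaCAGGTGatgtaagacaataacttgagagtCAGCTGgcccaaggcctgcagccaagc

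In windows of 250 bases before and 50 bases after the start, 8 of the 10 genes had a sequence. The N-box was found in 2 of these 8, Chrne and Chrnd, against 15.0% of all 33469 promoters of the same length. Counted from the start, its first base lay at -54 in Chrne, and in Chrnd at -115 on the opposite strand. All 8 held an E-box, but so did 72.1% of all promoters. The form CAGCTG, which is 1 form of CANNTG and therefore also counted among the E-boxes, was in 5 of 8, against 15.1% of all promoters. Those 5 were Chrna1, Chrnb1, Chrne, Chrng and Musk. Chrna1 had 2 of them, at -75 and -27, and Chrng also had 2, at -26 and -3, the last of which runs past the end of the sequence printed above. Chrne alone among the 8 held both an N-box and the CAGCTG form. Dok7 and Ache each had 1 E-box, at -244 in Dok7 and at -229 in Ache, and no N-box in this window. These matches describe letters in the window, and binding was not measured.

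**Figure D1:**
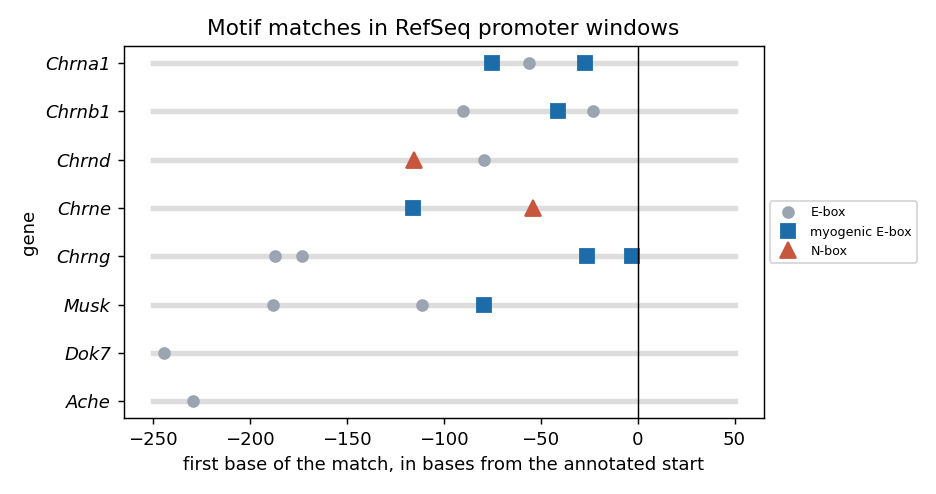
Positions of motif matches in the RefSeq promoter windows of the 8 genes that have one, with the first base of each match on the horizontal axis in bases from the annotated start. Grey circles are E-boxes (CANNTG), blue squares their CAGCTG form and red triangles N-boxes (CCGGAA); N-boxes appear in Chrne at -54 and in Chrnd at -115, and the CAGCTG form in 5 of the 8 genes.

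Transcripts of the alpha, beta and delta subunits were also read. Chrna1 (ENSRNOG00000018286), whose alpha subunit carries the acetylcholine binding site, averaged 3.32 log2 CPM, or 10.02 CPM. Chrnb1 (ENSRNOG00000014698), the beta subunit gene, averaged 4.73 log2 CPM, or 26.6 CPM. Chrnd (ENSRNOG00000019527), the delta subunit gene, averaged 2.73 log2 CPM, or 6.64 CPM. Each assembled receptor needs the alpha subunit as a pair, but CPM is not divided by transcript length, so these values do not give the order of the subunits in molecules. With Chrne, 4 of the 5 muscle subunit genes had an entry, with a median of 3.86 log2 CPM. Of 11 neuronal subunit genes, which encode receptors of neurons and some other cells, 2 had an entry. These were Chrna4 at 0.06 log2 CPM and Chrna10 at 0.13 log2 CPM.

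Among the clustering genes, Lrp4 had the largest share of reads. Lrp4 (ENSRNOG00000015285), the agrin receptor, averaged 6.48 log2 CPM, or 89.1 CPM, a level that 95.2% of all entries lay below. Its transcript encodes a large protein, and a long transcript gives more reads per molecule, so its place above the others is one of reads and not of molecules. Musk (ENSRNOG00000033567), the kinase that Lrp4 activates, averaged 2.76 log2 CPM, or 6.77 CPM. Dok7 (ENSRNOG00000022419), the cytoplasmic activator of Musk, averaged 3.63 log2 CPM, or 12.4 CPM. Rapsn (ENSRNOG00000011208), the scaffold that binds the receptors from within the cell, averaged 2.67 log2 CPM, or 6.37 CPM. Agrn, which encodes agrin and is made by nerve and muscle, averaged 5.68 log2 CPM. Of 16 genes listed for the agrin pathway, these 4 and Agrn included, 15 had an entry, with levels of 2.67 to 6.85 log2 CPM and a median of 3.93.

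Ache (ENSRNOG00000050841) averaged 5.52 log2 CPM, or 45.7 CPM, with 88.4% of all entries below it. Colq, the collagen tail that anchors the enzyme in the synaptic cleft, was at 1.27 log2 CPM, and Prima1, which anchors it in membranes, was at 3.09 log2 CPM. Bche, the related butyrylcholinesterase, was at 1.98 log2 CPM. The synaptic laminin chain gene Lamb2 was at 7.28 log2 CPM, and Col13a1, a transmembrane collagen of the junction, was at 0.95 log2 CPM. In all, 11 of 12 genes of the synaptic basal lamina and its esterases had an entry.

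**Figure D2:**
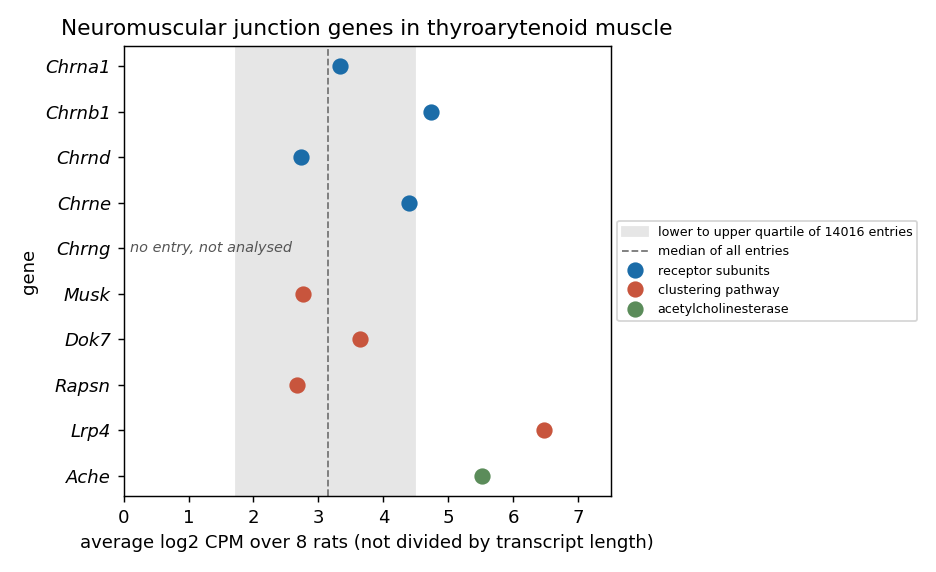
Average level of each gene in log2 CPM over the 8 rats of both genotypes (horizontal axis), 1 point per gene with no error bar because the table gives no values per rat. The grey band runs between the quartiles of all 14016 entries, 1.73 and 4.49 log2 CPM, and the dashed line is their median; the 9 genes run from Rapsn at 2.67 to Lrp4 at 6.48, and Chrng has no entry.

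Set against the whole table, the 9 genes had a median of 3.63 log2 CPM, while the median of all 14016 entries was 3.14. They lay above that median in 6 of 9 cases, and Chrnd, Musk and Rapsn lay below it, with 41.9%, 42.5% and 40.8% of entries beneath them. Chrna1, Dok7, Chrne and Chrnb1 had 53.7%, 60.0%, 73.3% and 78.9% of entries below them. These positions rank CPM values and so mix transcript length with abundance. They are given as a description with no test.

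The spans of some members overlap another gene with an entry. In the RefSeq annotation, Chrnb1 overlaps Zbtb4, which had 5.38 log2 CPM, Chrne overlaps Gp1ba, which had 1.54 log2 CPM, and Ache overlaps Ufsp1, which had 2.34 log2 CPM. Other genes that overlap the span of Chrne, Musk, Lrp4 or Ache had no entry. Whether the counting used strand is not given in the sources used here, so reads in such overlaps cannot be told apart and the levels of Chrnb1, Chrne and Ache are uncertain to that extent. Chrnd and Chrng are next to each other on the chromosome with 0 annotated genes between them. Between Rapsn and Lrp4 lie 17 annotated genes, and between Chrnb1 and Chrne lie 60.

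Genes that denervated muscle is known to induce were mostly read in these samples, and their levels, like the others here, are averages over both genotypes. Of 12 listed, 10 had an entry, with a median of 4.29 log2 CPM, and 6 lay above the median of all entries. Dach2 had no entry, and neither had Chrng, the member of this list that belongs to the receptor. The lowest was Myod1 at 2.48 log2 CPM. Whether these levels reflect a state of innervation was not tested. Myh8, the perinatal myosin heavy chain, was at 8.99 log2 CPM. Fbxo32 and Trim63, the ubiquitin ligases of muscle atrophy, were at 6.45 and 5.50 log2 CPM. Hdac4, a deacetylase that carries the denervation signal, was at 4.57 log2 CPM, and Myog, the gene of myogenin, was at 2.55 log2 CPM. Ncam1, an adhesion molecule that spreads along the fiber after denervation, was at 4.20 log2 CPM but is also made by Schwann cells. Scn4a, the sodium channel of innervated adult fibers and a gene of another list, was at 7.97 log2 CPM. Myh3, the embryonic myosin gene, was at 2.90 log2 CPM.

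Other gene lists of the junction differed in how many of their genes had an entry. The list for the dystrophin complex at the synapse also held Scn4a, the sodium channel gene. All 8 genes of this list had an entry, from Sntb2 at 1.91 to Dmd at 8.02 log2 CPM. Utrn, the synaptic relative of dystrophin, was at 7.75 log2 CPM. All 8 genes of neuregulin signaling and synaptic transcription had an entry as well. Nrg1, the nerve-derived ligand, was at 1.27 log2 CPM, its receptors Erbb2, Erbb3 and Erbb4 were at 4.60, 4.86 and 2.25 log2 CPM, and the ETS factors Etv5 and Etv4 were at 4.45 and 1.05 log2 CPM. Gabpa and Gabpb1, which encode the subunits of the N-box factor GABP, were at 4.24 and 2.30 log2 CPM. The 5 glycosylation genes whose mutation causes congenital myasthenia in humans all had an entry, with a median of 3.41 log2 CPM and Gfpt1 at 6.34 log2 CPM. Genes of the motor nerve terminal are transcribed by motor neurons, whose nuclei lie in the brainstem, and 4 of 7 had an entry. Snap25, Syn1 and Slc5a7 were at 0.03, 0.04 and -0.07 log2 CPM, and Vamp1 was at 4.21 log2 CPM. Which cells the Vamp1 reads came from was not tested, so its level was not read as RNA of the nerve.

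**Figure D3:**
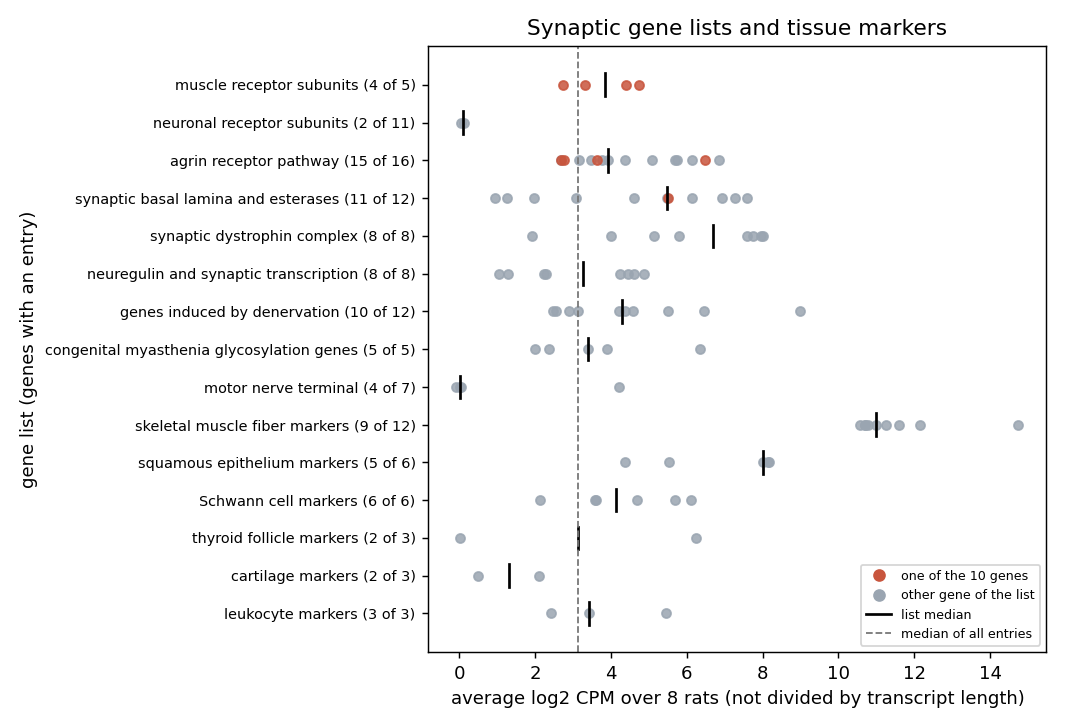
Average level in log2 CPM over the 8 rats for every gene with an entry in 15 gene lists, 1 row per list with the number of genes that have an entry. Red points are among the 10 neuromuscular junction genes, grey points are other genes, black bars are list medians and the dashed line is the median of all entries; muscle fiber markers lie between 10.56 and 14.75, and squamous epithelium markers between 4.37 and 8.18.

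The labelled tissue was checked with markers of muscle fibers, of which 9 of 12 had an entry. These lay between 10.56 log2 CPM for Tnni2 and 14.75 log2 CPM for Myh4, a fast myosin gene. Myh1, Myh2 and Atp2a1 had no entry, which was not read as absence from the muscle. Other tissues were also read. Of 6 markers of squamous epithelium, 5 had an entry at 4.37 to 8.18 log2 CPM, with Krt4 at 8.18, and 6 of 6 Schwann cell markers lay at 2.14 to 6.11 log2 CPM. Tg, the thyroid hormone precursor, was at 6.24 log2 CPM, and 3 of 3 leukocyte markers lay at 2.43 to 5.46 log2 CPM. In cartilage, Acan and Col2a1 were at 2.11 and 0.51 log2 CPM, and Comp had no entry. Ache, Agrn, Lrp4, Erbb3 and Ncam1 are made outside muscle too, and the part of these tissues in their levels was not tested. In bulk muscle, fewer cells of a type and less RNA per cell cannot be told apart.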

How the data were processed

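RNA of TA muscle from 8 male rats was prepared with an Illumina TruSeq kit, and the genotype of each rat is that of its label. RSEM, without a version, and edgeR 3.9 are the tools in the submitters' processing notes. Their build, annotation and filter are not known from these sources. The deposited table gives, per gene, an average log2 CPM made by the authors over all samples, which is the only value used. Its 5 other columns hold the authors' own comparison of Pink1-/- with WT (log2 fold change, likelihood ratio, p-value, adjusted p-value and status) and were not used. With 0 columns per rat, no genotype test of values per rat could be run, and depth is unknown. Members and lists were chosen with earlier results of these data known.

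Genes were matched by symbol, and 0 members stood on more than 1 entry. Positions among entries were computed as the percent of the 14016 entries below. Lists are described by counts, ranges and medians. Named genes are all members, lists of 8 or fewer genes, and of longer lists up to 4 with the most reads and the lowest. Some others (Agrn, Colq, Prima1, Bche, Myog, Ncam1 and Myh3) were chosen after their values were seen. Some listed genes are not reported here. Promoters and gene overlaps are from RefSeq (GRCr8), and all 10 members matched its gene table. Motif matching was tested on simulated data. Coding lengths were not used here, so no level per length is given. The tools used were Python 3.11.15, pandas 2.3.3, numpy 2.4.6 and matplotlib 3.10.9.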

Additional observations from a re-analysis of the deposited data

How the results depend on the processing

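With older symbols tried, 9 members had an entry, as before. With the receptor subunits left out, chosen after seeing the data, the median of the members was 3.63 log2 CPM, as with them. Dok7 is the middle gene in both sets, so the equal median says little about the effect of this choice. Summing rows changed no member, as each stands on 1 row. Ranked among the 13458 entries of at least 1 CPM, the members' percentiles were lower by 0.20 to 2.46 points, because fewer entries lie beneath. With the 250 bases before the start alone, chosen after seeing the data, the same numbers of members held each motif, against 65.5% (CANNTG), 12.0% (CAGCTG) and 12.6% (CCGGAA) of all promoters. Not run for want of lengths were levels per coding or transcript length, the length-scaled ranking and the planned ratio of Chrne to Chrng, which has no entry. Not run for want of values per rat were the edgeR and DESeq2 tests, the filter alternatives and leaving out each rat. No paired analysis was possible because levels are pooled over rats. Depth is unknown, so no limit from it can be given.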
